A study of Homo sapiens with 17 samples.

Results

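The 10 genes described here regulate the passage of cells through the G1 phase of the cell cycle. They are the D-type cyclins CCND1, CCND2 and CCND3, the E-type cyclins CCNE1 and CCNE2, the CDK inhibitors CDKN1A, CDKN1B, CDKN1C and CDKN2C, and MDM2. They were taken by symbol from a named set, drawn up with earlier results of these data known, and each was found once among the 58870 entries of the deposited gene table. The study followed cultures of MDA-MB-231, a human line established from a triple-negative breast cancer, during exposure to TRAIL, a death receptor ligand of the tumour necrosis factor family. The dose of 45 nM was described by the submitters as suboptimal, with the aim of profiling living rather than dying cells. Poly(A) RNA was sequenced at 0 h, the start of the series, and after 1, 3, 6, 12 and 24 h with TRAIL, in 3 libraries per time and in 2 at 1 h, which made 17. All groups were the same unmodified line. The labels give the same dose for every group, also for 0 h, where no time with TRAIL had passed. No library of untreated cells at a later time was analysed here, so time with TRAIL and time in culture cannot be told apart. The labels do not say whether the libraries of a time came from separate cultures, so the p-values measure only the spread between these libraries, which may be technical.

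D-type cyclins bind CDK4 and CDK6, and E-type cyclins bind CDK2. Both kinds of complex phosphorylate RB1, which releases E2F transcription factors and lets cells enter S phase. CDKN1A (p21), CDKN1B (p27) and CDKN1C (p57) form the Cip/Kip family, which blocks cyclin-CDK complexes of several kinds. CDKN2C (p18) belongs to the INK4 family, which binds CDK4 and CDK6. CDKN1A and MDM2 are textbook targets of p53, and MDM2 is the ubiquitin ligase that marks p53 for destruction. MDA-MB-231 is known to carry a deletion of the CDKN2A and CDKN2B region.

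The promoters of CDKN1A and MDM2 are shown because both are p53 targets and only CDKN1A was called at 3 and 6 h. The sequences are from RefSeq on GRCh38.p14, on the plus strand, and were ended where they would enter an exon that GENCODE 29 annotates on that strand. The CDKN1A stretch, chr6:36678464-36678657, lies inside the span of the gene, since other CDKN1A transcripts start at 36676460, and its first bases overlap DINOL, a noncoding gene on the other strand that ends at 36678559. MDM2 has one start at 68808172, at the gene's edge, preceded by chr12:68807922-68808171. The start at 68809017 lies behind the first exon, and chr12:68808767-68809001 before it is the intronic region known as the p53-responsive promoter. Capitals mark GGGCGG (Sp1-type), TGANTCA (AP-1-type) and GCGCCAAA, the reverse complement of TTTGGCGC (E2F-type).
CDKN1A: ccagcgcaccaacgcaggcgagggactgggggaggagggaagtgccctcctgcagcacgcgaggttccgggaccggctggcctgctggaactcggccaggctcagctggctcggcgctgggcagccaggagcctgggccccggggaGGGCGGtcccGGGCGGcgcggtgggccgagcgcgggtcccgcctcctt
MDM2, gene edge: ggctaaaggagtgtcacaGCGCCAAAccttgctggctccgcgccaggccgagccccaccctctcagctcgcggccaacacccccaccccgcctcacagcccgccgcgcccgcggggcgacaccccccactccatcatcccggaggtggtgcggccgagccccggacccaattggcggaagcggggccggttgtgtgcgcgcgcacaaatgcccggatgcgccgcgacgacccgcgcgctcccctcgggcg
MDM2, intronic: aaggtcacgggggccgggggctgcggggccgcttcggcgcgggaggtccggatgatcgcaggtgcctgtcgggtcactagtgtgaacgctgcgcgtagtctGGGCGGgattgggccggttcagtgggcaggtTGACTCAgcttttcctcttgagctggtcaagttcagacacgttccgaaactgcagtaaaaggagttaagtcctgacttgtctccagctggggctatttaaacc
Among the 250 bases before the CDKN1A start there were 4 GGGCGG matches, of which the pair at -45 and -40 overlap by a base and lie in the exonic stretch left out. Searched on both strands, GGGCGG was present in 42.6% of all 35116 RefSeq windows of the same length, TGANTCA in 6.57%, and the E2F forms TTTCGCGC or TTTGGCGC in 0.968%. No exact match of the p53 consensus decamer RRRCWWGYYY, present in 5.57% of windows, was in any of the members' windows. Sites outside the 250 bases, or with a letter that departs from the consensus, could not be seen by this search. Absence of a match is thus not absence of a p53 site, also in the intronic MDM2 region. These matches are descriptions of letters in a window. RefSeq windows were matched for 6 of the 10 genes, and not for CCND1, CCND2, CCNE2 and CDKN1C.

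The libraries held 13731520 to 19234924 counts. Of the 6 mesenchymal markers, VIM had 37967 to 63103 counts, CD44 15810 to 28424, CAV1 9774 to 18143 and AXL 8511 to 17332. ZEB1 had 411 to 1220 counts and SNAI2 430 to 801, whereas ESR1 and PGR reached at most 2 and 1 counts. Of the 6 luminal and epithelial markers 3 reached 10 counts, among them ERBB2 with 786 to 1221 and EPCAM with 204 to 346. Of the 6 leukocyte and endothelial markers 2 did, CD14 with 11 to 32 counts and PECAM1 with 11 to 68, and PTPRC, the pan-leukocyte marker, had at most 5 and CD3E 0. The summed level of these 6 was 4.60 to 5.62 CPM at 24 h and at most 3.57 CPM at the other times, and its part in the results was not tested. The mitochondrial share of counts moved with time, with group means of 6.75%, 8.59%, 4.49% and 3.90% at 0, 3, 6 and 24 h. The slope of a library's log2 deviation from the mean of all libraries on transcript length also moved, from between -0.15 and -0.07 log2 units per doubling of length at 3 h to between 0.01 and 0.16 at 24 h. The part of the mitochondrial share in the results was not tested. Values from a fit with length and GC trends removed stand beside the members' results against 0 h whose call they change. At 6 h and at 24 h, replicates 2 and 3 stood closer to each other than other replicate pairs, with a chi-square per gene of 1.57 and 1.67 against 3.68 to 13.5.

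All 10 genes passed the filter on low counts. Levels are given as CPM, each gene's count as a share of the library total scaled by the TMM method. Changes are log2 fold changes from edgeR's quasi-likelihood test with Benjamini-Hochberg adjustment over 15365 genes, and a change was called at an adjusted p below 0.05. Because the RNA came from whole cultures, fewer cells with a message and less message per cell cannot be told apart. All comparisons with 0 h share the same 3 libraries.

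None of the 10 genes was called at 1 h against 0 h, a comparison in which 0.312% of all genes were called. There the unadjusted p was below 0.05 for 0 of the 10, and DESeq2 and limma-voom also called 0. At 3 h, CDKN1A was higher and CDKN1B and CDKN1C were lower, 3 of 10 where 17.7% of all genes were called, 9.04% higher and 8.71% lower. At 6 h, CDKN1A and CCND1 were higher and CCND3, CDKN1C and CDKN2C were lower, 5 of 10 against 30.1% of all genes, 16.9% higher and 13.2% lower. At 12 h only CDKN2C was called, lower, 1 of 10 against 12.4% of all genes, 5.96% higher and 6.48% lower. At 24 h, CDKN2C was lower and MDM2 higher, 2 of 10 against 35.1% of all genes, 18.0% higher and 17.1% lower. Across all times together 7 of the 10 genes were called, against 64.2% of all genes. CCND2, CCNE2 and MDM2 were not, with adjusted p of 0.458, 0.360 and 0.133. The median log2 fold changes of the 10 at 1, 3, 6, 12 and 24 h were 0.00, -0.09, -0.12, -0.06 and -0.05 relative to 0 h, where that of all genes lay between -0.02 and -0.00. Called members lay in both directions, and with 10 genes nothing particular to the set is read from these shares.

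**Figure D1:**
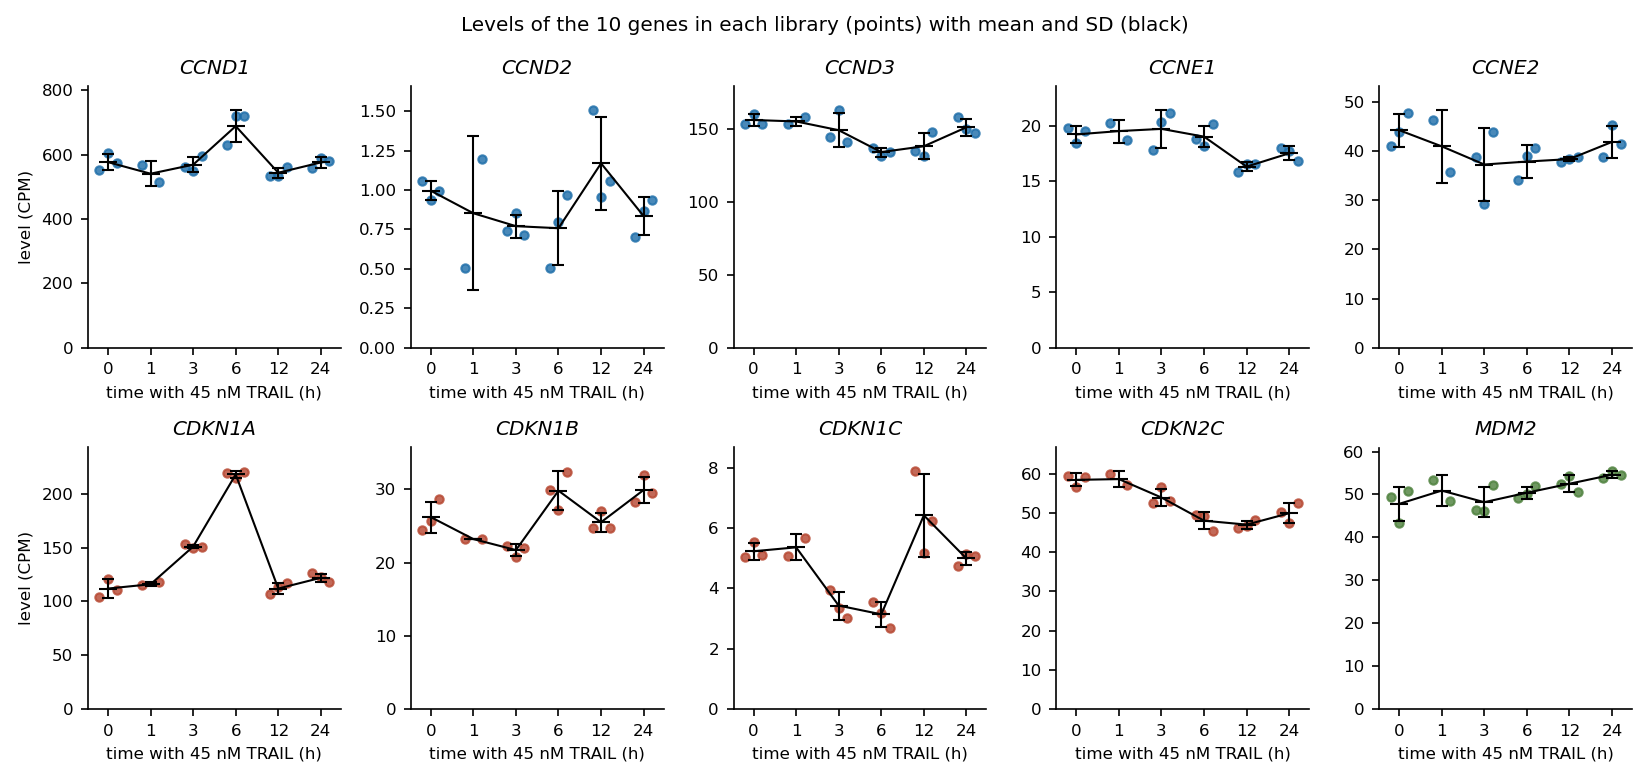
Level of each gene in CPM (y axis, from 0) against time with 45 nM TRAIL in h (x axis, categories). Points are single libraries, and black bars the mean and SD of a time; CDKN1A stands at 215 to 220 at 6 h, above every other library, while the MDM2 means stay between 47.8 and 54.6.

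CDKN1A (p21), the Cip/Kip inhibitor best known from DNA damage arrest, had the largest change against 0 h of the 10 genes and returned to near its starting level by 12 h. Its level was 104, 121 and 111 CPM in the 0 h libraries and 115 and 118 CPM at 1 h. It was 153, 150 and 151 CPM at 3 h and 219, 215 and 220 CPM at 6 h. It was then 107, 113 and 117 CPM at 12 h and 126, 123 and 118 CPM at 24 h. The 3 h and 6 h libraries were all above every library of the other 4 times, and the 6 h libraries above those of 3 h. The log2 fold change against 0 h was 0.43 (SE 0.0574, edgeR adjusted p = 3.2e-05) at 3 h, which is 1.35-fold. At 6 h it was 0.96 (SE 0.0570, adjusted p = 1.2e-09), which is 1.94-fold. Between 6 and 12 h the level fell by 0.95 on the log2 scale (SE 0.0568, edgeR adjusted p = 1.3e-09). In the order of the means, 0, 12, 1, 24, 3 and 6 h, the 4 lowest times did not differ between neighbours, whereas 24 h and 3 h did (edgeR adjusted p = 1.6e-04), as did 3 h and 6 h (3.9e-06). The value at 24 h, 0.13 against 0 h, was not called (adjusted p = 0.0945), and with length and GC trends removed it was 0.26 (adjusted p = 9.6e-04). It also passed with scaling by library size only, at 0.20 (edgeR adjusted p = 0.0165), and without the second 0 h library, at 0.19 (0.0202).

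CDKN1C (p57), the imprinted and least abundant Cip/Kip inhibitor here, moved the opposite way to CDKN1A at 3 and 6 h. Its level was 5.04, 5.54 and 5.10 CPM at 0 h and 5.06 and 5.67 CPM at 1 h. It was 3.93, 3.34 and 3.01 CPM at 3 h and 3.54, 3.18 and 2.70 CPM at 6 h. All 6 of those libraries lay below every library of the other times. The level fell by 0.61 on the log2 scale at 3 h (SE 0.166, edgeR adjusted p = 0.0156) and by 0.74 at 6 h (SE 0.163, adjusted p = 0.00240), to 0.598 of that at 0 h. At 12 h the libraries had 7.88, 5.17 and 6.22 CPM, which was 2.03-fold the 6 h level (log2 1.02, SE 0.158, edgeR adjusted p = 1.7e-04). The 12 h libraries overlapped those of 0 h, and the difference of 0.28 was not called (adjusted p = 0.219). With length and GC trends removed it was 0.47 and was called (edgeR adjusted p = 0.0183). At 24 h the level was 4.74, 5.14 and 5.07 CPM, a difference of -0.07 from 0 h. In the order of the means the step from 3 h to 24 h differed (edgeR adjusted p = 0.00986) and no other neighbouring step did. The 3 h call was lost without the second 0 h library (-0.57, edgeR adjusted p = 0.0607), without the second 3 h library (-0.59, 0.0560) and without the third (-0.52, 0.0583).

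CDKN1B (p27), which restrains CDK2 in resting cells, was lowest at 3 h and highest at 6 and 24 h. Its level was 24.5, 25.7 and 28.6 CPM at 0 h, 23.2 and 23.2 at 1 h, then 22.3, 20.7 and 22.0 at 3 h. It was 29.9, 27.1 and 32.4 CPM at 6 h, 24.7, 27.0 and 24.7 at 12 h, then 28.3, 31.9 and 29.5 at 24 h. The 3 h libraries were the lowest of all, and the groups at 6 and 24 h overlapped that at 0 h. The fall at 3 h was called at -0.27 (SE 0.0846, edgeR adjusted p = 0.0308). This call was lost in a fit of the 0 h and 3 h libraries alone (-0.27, adjusted p = 0.0519) and without the second 0 h library (-0.29, 0.0612), the third 0 h library (-0.21, 0.161), the first 3 h library (-0.29, 0.0606) or the second (-0.24, 0.114). From 3 to 6 h the level rose by 0.46 (SE 0.0836, edgeR adjusted p = 3.0e-04). Between 6 and 12 h it fell by 0.23 (SE 0.0805, edgeR adjusted p = 0.0497), which is just under the threshold. With single libraries left out, 3 to 4 members were called at this step, against 4 in the reported fit. These counts do not say whether the CDKN1B call was the one lost. The differences from 0 h at 6 h and at 24 h were both 0.19 and were not called (edgeR adjusted p = 0.0849 and 0.0762). With length and GC trends removed both were called, at 0.22 (edgeR adjusted p = 0.0356) and 0.21 (0.0360). The 24 h value was also called with scaling by library size only, at 0.26 (edgeR adjusted p = 0.0236), and without the third 0 h library, at 0.25 (0.0346). The 6 h value was called without that library, at 0.25 (edgeR adjusted p = 0.0404), and without the second 6 h library, at 0.25 (0.0499).

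CDKN2C (p18), an INK4 inhibitor of CDK4 and CDK6, was lower from 6 h on and stayed lower. Its level was 59.5, 56.5 and 59.2 CPM at 0 h, 60.0 and 57.2 at 1 h, then 52.4, 56.5 and 52.9 at 3 h. It was 49.4, 49.2 and 45.5 CPM at 6 h, 46.2, 46.6 and 48.1 at 12 h, then 50.1, 47.3 and 52.4 at 24 h. Every library from 6 h on lay below every library of 0 and 1 h. At 6 h the level fell by 0.28 on the log2 scale (SE 0.0606, edgeR adjusted p = 0.00204). The 12 h level had a log2 fold change of -0.31 (SE 0.0605, adjusted p = 0.00247), and the 24 h level had one of -0.23 (SE 0.0605, adjusted p = 0.00717). No neighbouring pair in the order of its means differed. The 24 h value was -0.15 with scaling by library size only (edgeR adjusted p = 0.0548) and -0.14 with length and GC trends removed (0.0538). With scaling by library size only the 3 h value was called, at -0.18 (edgeR adjusted p = 0.0377). Of the other INK4 genes, CDKN2A and CDKN2B had 0 counts in all 17 libraries, and 3 counts would have been 0.151 to 0.233 CPM in a library. CDKN2D (p19) went from 43.0 ± 2.06 CPM (SD, n = 3) at 0 h to 36.4 ± 5.89 (SD, n = 3) at 24 h. It was not called at any time in the reported fit, but was called lower at 3 h and at 24 h in at least 1 alternative.

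CCND1 (cyclin D1), the most abundant of the 10 messages, was higher at 6 h alone. Its level was 554, 605 and 573 CPM at 0 h, 569 and 514 at 1 h, then 562, 550 and 596 at 3 h. It was 631, 719 and 719 CPM at 6 h, 535, 535 and 562 at 12 h, then 558, 589 and 582 at 24 h. The 6 h libraries were above all the others. The log2 fold change at 6 h was 0.26 against 0 h (SE 0.0620, edgeR adjusted p = 0.00483) and 0.28 against 3 h (SE 0.0621, adjusted p = 0.00148). From 6 to 12 h the level fell by 0.34 (SE 0.0620, edgeR adjusted p = 7.1e-04), and the mean at 24 h, 576 ± 16.4 CPM (SD, n = 3), was close to the 577 ± 25.5 of 0 h. With the 2 near-identical libraries of 6 h and of 24 h averaged, the 6 h value was 0.21 (edgeR adjusted p = 0.0508). CCND1 counts were fractional in all 17 libraries, as they are where reads are shared between genes.

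CCND3 (cyclin D3) moved the other way at 6 h. Its level was 153, 160 and 153 CPM at 0 h, 153 and 158 at 1 h, then 144, 163 and 141 at 3 h. It was 137, 131 and 134 CPM at 6 h, 135, 131 and 148 at 12 h, then 158, 150 and 147 at 24 h. The 6 h and 12 h libraries lay below those of 0 h, and the 24 h libraries overlapped them. The fall at 6 h was called at -0.22 (SE 0.0603, edgeR adjusted p = 0.0109) and the difference of -0.17 at 12 h was not (adjusted p = 0.0710). DESeq2 called it at -0.17 (adjusted p = 0.0460), as did edgeR without the third 12 h library at -0.22 (adjusted p = 0.0362). Between 6 and 24 h the level rose by 0.18 (SE 0.0603, edgeR adjusted p = 0.0383). The 6 h value was -0.13 with length and GC trends removed (edgeR adjusted p = 0.0238) and -0.20 without the second 6 h library (0.0508). CCND2 (cyclin D2) had between 8 and 22 counts in a library, or 0.506 to 1.51 CPM, and no difference between times was detectable at this depth. A readthrough gene on the same strand, AC008012.1, overlaps CCND2 with a mean count of 64.56, and CCND2 counts were fractional in 15 of 17 libraries.

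The E-type cyclins had no called change against 0 h in the reported fit, though several alternatives made calls. CCNE1 (cyclin E1) had 19.8, 18.4 and 19.5 CPM at 0 h, 20.2 and 18.7 at 1 h, 17.8, 20.3 and 21.1 at 3 h, then 18.8, 18.2 and 20.1 at 6 h. It was lowest at 12 h, with 15.8, 16.5 and 16.5 CPM, and had 18.0, 17.7 and 16.8 CPM at 24 h. The 12 h libraries lay below all others. The difference at 12 h was -0.24 against 0 h (edgeR adjusted p = 0.0557) and was called against 3 h, at -0.28 (SE 0.0804, adjusted p = 0.0110). The 12 h value against 0 h passed with a filter at a mean count of 10 (edgeR adjusted p = 0.0443) and with non-robust estimation (0.0475). CCNE2 (cyclin E2) had 41.0, 44.0 and 47.7 CPM at 0 h, 46.3 and 35.7 at 1 h, then 38.8, 29.2 and 44.0 at 3 h. It had 34.2, 39.1 and 40.6 CPM at 6 h, 37.8, 38.5 and 38.8 at 12 h, then 38.8, 45.4 and 41.5 at 24 h. The 6 h and 12 h libraries lay below those of 0 h, and the other times overlapped them. The differences from 0 h were -0.24, -0.22 and -0.21 at 3, 6 and 12 h (edgeR adjusted p = 0.173, 0.169 and 0.273). With length and GC trends removed the 6 h and 12 h values were called, at -0.29 (edgeR adjusted p = 0.0157) and -0.26 (0.0467). The 6 h value was also called in a fit of the 2 times alone, at -0.23 (edgeR adjusted p = 0.0422). The 3 h value was called with no filter, at -0.26 (edgeR adjusted p = 0.0260), and without the third 3 h library, at -0.38 (0.0404). CCNE2 counts were fractional in all 17 libraries, and INTS8 and NDUFAF6 overlap it on the other strand.

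**Figure D2:**
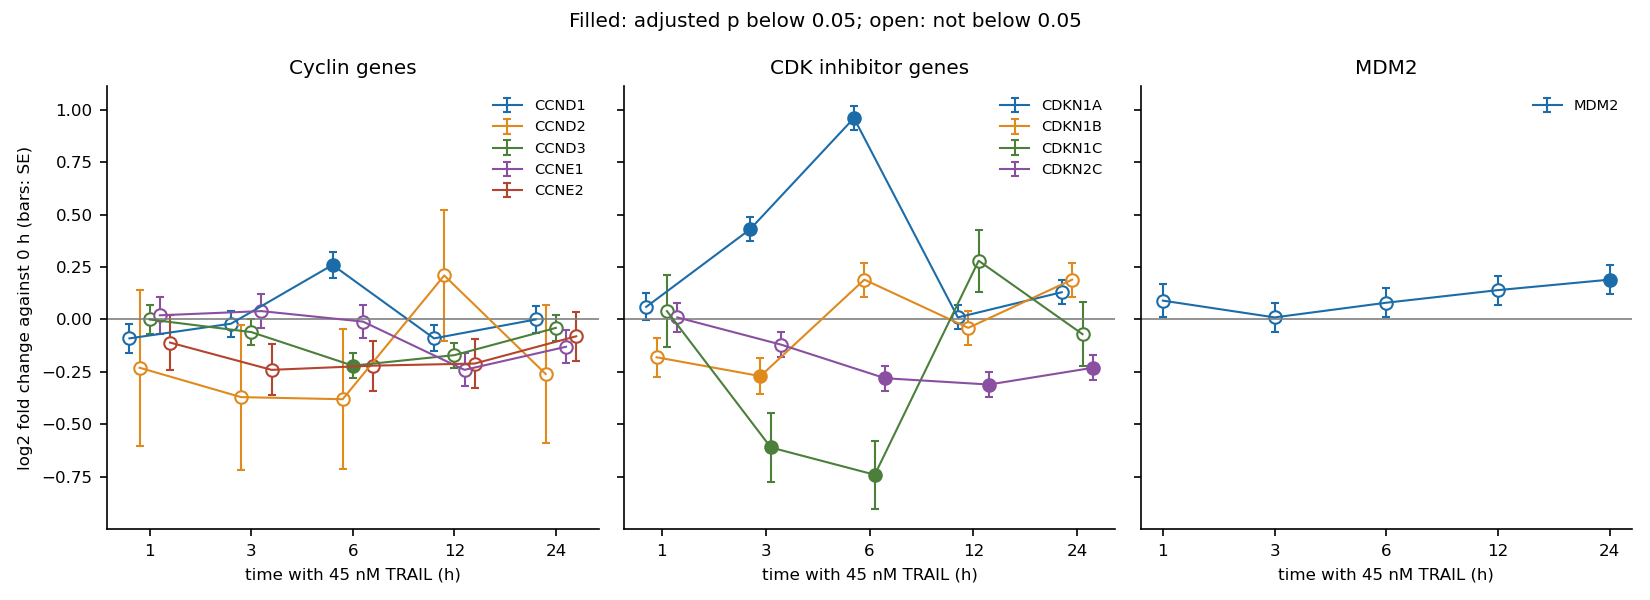
Log2 fold change against 0 h (y axis) at each time with TRAIL in h (x axis, categories) for the cyclins, the CDK inhibitors and MDM2, with bars of 1 SE. Filled points have an edgeR adjusted p below 0.05; CDKN1A peaks at 0.96 and CDKN1C is lowest at -0.74, both at 6 h, and MDM2 is filled at 24 h only, at 0.19.

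MDM2, the p53 ubiquitin ligase and itself a p53 target, was called at 24 h and at no earlier time. Its level was 49.4, 43.4 and 50.7 CPM at 0 h, 53.4 and 48.4 at 1 h, then 46.3, 46.2 and 52.2 at 3 h. It was 49.1, 50.1 and 51.9 CPM at 6 h, 52.5, 54.4 and 50.5 at 12 h, then 53.8, 55.4 and 54.6 at 24 h. At 6 h, where CDKN1A stood 0.96 above 0 h, MDM2 stood 0.08 above, not called, and its libraries overlapped those of 0 h. The 24 h libraries lay above all 3 of 0 h, and the difference was called at 0.19 (SE 0.0698, edgeR adjusted p = 0.0382). That call was lost with upper-quartile scaling (0.17, adjusted p = 0.0617), with no filter (0.19, 0.0887), in a fit of the 2 times alone (0.18, 0.0682) and with the near-identical libraries averaged (0.18, 0.122). It was also lost without the first 0 h library (0.21, edgeR adjusted p = 0.0572), the second 0 h library (0.13, 0.189), the second 24 h library (0.18, 0.106) or the third (0.19, 0.0875). With length and GC trends removed its sign turned, to -0.08 (edgeR adjusted p = 0.393). MDM2 has 13.284 kb of exon, the most of the 10 genes, and its counts were fractional in all 17 libraries. The pseudogene AC025423.2, with a mean count of 52.45, overlaps it on the same strand.

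Compared per kb of exon, the genes spanned about 3 orders of magnitude, more than any of them moved with time. On the scale of CPM per kb, averaged over all libraries, CCND1 stood at 121, CDKN1A at 45.9 and CCND3 at 25.3. CDKN2C followed at 15.8, CDKN1B at 9.33, CCNE2 at 9.12 and CCNE1 at 7.25. MDM2 was at 3.82, CDKN1C at 1.91 and CCND2 at 0.126. Cyclin D1 was thus the main D-type cyclin message and p21 the main inhibitor message of this set at every time, and p57 was the scarcest inhibitor message.

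**Figure D3:**
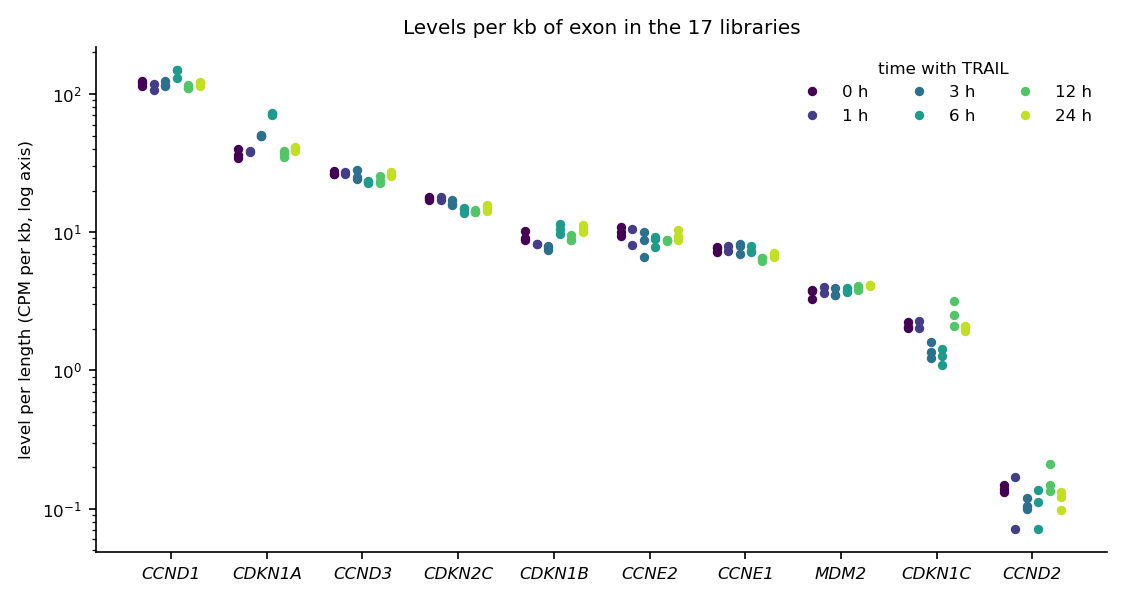
Level per kb of exon (y axis, CPM per kb, log axis) of each gene in each of the 17 libraries, with points coloured by time with TRAIL. Genes are ordered by their mean over all libraries, from CCND1 at 121 to CCND2 at 0.126.

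The genes lie on GRCh38 (GENCODE 29) as follows. CCND1 is at chr11:69641087-69654474 and CDKN1C at chr11:2883213-2885773, the first on the plus and the second on the minus strand. CCND2, CDKN1B and MDM2 share chromosome 12, at chr12:4273772-4305350, chr12:12715058-12722371 and chr12:68808176-68850686, all on the plus strand. CCND3 is at chr6:41934933-42050357 (minus) and CDKN1A at chr6:36676460-36687339 (plus). CCNE1 is at chr19:29811898-29824308 (plus), CCNE2 at chr8:94879770-94896678 (minus) and CDKN2C at chr1:50960745-50974633 (plus). Each is a protein-coding gene and its counts cover all of its exons, untranslated parts included.

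The counts for the gene lists that follow stand beside the same shares of all genes. At 3, 6, 12 and 24 h, 9.04%, 16.9%, 5.96% and 18.0% of all genes were called higher and 8.71%, 13.2%, 6.48% and 17.1% lower. Of 16 genes that E2F factors drive at the G1/S boundary, 0 were higher at these times, and 5, 9, 14 and 11 were lower. Their median log2 fold changes were -0.14, -0.18, -0.37 and -0.19. PCNA, the sliding clamp of DNA polymerase, fell by 0.54 at 6 h (edgeR adjusted p = 4.3e-06) and by 0.53 at 24 h (5.5e-06). CDC45, part of the replicative helicase, fell by 0.57 at 12 h (edgeR adjusted p = 1.5e-05), and ORC1, of the origin recognition complex, by 0.51 at 3 h (0.00345). Over the alternative settings 2 to 11 were lower at 3 h, 6 to 10 at 6 h, 13 to 15 at 12 h and 7 to 11 at 24 h, and at most 1 was higher, at 6 h and at 24 h.

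Among 20 genes of the G1 kinases and the RB-E2F axis the calls were split, with 5 higher and 4 lower at 3 h, 5 and 2 at 6 h, 3 and 4 at 12 h, then 3 and 4 at 24 h. Over the alternatives 3 to 7 were higher and 2 to 4 lower at 3 h, and 4 to 7 and 1 to 4 at 6 h. The ranges were 0 to 3 higher and 2 to 7 lower at 12 h and 1 to 4 and 2 to 4 at 24 h. CDK6, a kinase partner of the D-type cyclins, rose by 1.03 at 6 h (SE 0.0997, edgeR adjusted p = 1.4e-06) and was 0.63 above 0 h at 24 h. CDK4, their other partner, was not called at 3 or 6 h. It was lower at 12 h (-0.28, edgeR adjusted p = 0.00191) and at 24 h (-0.16, 0.0224). The 24 h call of CDK4 was lost in 8 of 20 alternatives. E2F1 fell by 0.42 at 6 h, by 0.60 at 12 h (SE 0.0612, edgeR adjusted p = 4.2e-06) and by 0.39 at 24 h. E2F2 fell by 0.53 at 3 h (edgeR adjusted p = 0.00250). Of 7 S and G2/M cyclins and partners, 1, 3, 4 and 4 were higher at 3, 6, 12 and 24 h and 0, 0, 1 and 1 lower. Over the alternatives 0 to 3, 2 to 5, 3 to 4 and 1 to 5 were higher, and at most 1 was lower at any time. CCNA1 rose by 1.03 at 12 h (SE 0.134, edgeR adjusted p = 5.6e-05) and CCNF by 0.54 at 6 h. CDK1, the mitotic kinase, fell by 0.22 at 24 h, and this was lost with scaling by library size only.

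Other p53-linked genes were called in both directions. Of 24 textbook p53 targets 22 could be tested, and SPATA18 and EDA2R were too low. GADD45A was called at 1 h, higher by 0.77 (SE 0.0903, edgeR adjusted p = 5.8e-05), before CDKN1A was, and was lower at 12 h by 0.53 and at 24 h by 0.81. At 3 h, 6 targets were higher, with PLK3 at 0.89, and 2 lower, with SESN2 at -0.61. At 6 h, when CDKN1A was highest, 2 were higher and 3 lower, with a median of -0.00. At 12 h 0 were higher and 3 lower, and at 24 h 4 were higher and 5 lower. Over the alternatives 4 to 6, 0 to 5, 0 to 2 and 1 to 6 targets were higher at 3, 6, 12 and 24 h, and 2 to 4, 2 to 3, 2 to 4 and 4 to 7 lower. MDM4, the partner of MDM2, was higher at 3 h (0.30, edgeR adjusted p = 0.0398), a call lost in 8 of 20 alternatives, among them the omission of any 3 h library and of the second or the third 0 h library. It was lower at 6 h (-0.36, edgeR adjusted p = 0.0114) and at 24 h (-0.49, 0.00128). The 6 h call of MDM4 was lost without the first 0 h or the second 6 h library. HIPK2, a kinase of p53, rose by 0.67 at 6 h (edgeR adjusted p = 9.5e-05).

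Of 15 ubiquitin ligase and turnover genes of G1 regulators, 2, 7, 1 and 5 were higher and 1, 2, 1 and 1 lower at 3, 6, 12 and 24 h. Over the alternatives 0 to 2, 2 to 7, 0 to 1 and 3 to 7 were higher and 0 to 3, 0 to 4, 0 to 4 and 1 to 3 lower. SKP2, the F-box protein that marks p27 for destruction, was lower at 3 h (-0.29, edgeR adjusted p = 0.0233), a call lost without the third 0 h library or the first or second 3 h library. FBXO4, an F-box protein linked to cyclin D1 turnover, fell by 0.69 at 24 h (SE 0.152, edgeR adjusted p = 0.00195). Of 20 transcription factors known to act upstream of the 10 genes, 1, 6, 10, 3 and 6 were higher and 1, 3, 1, 4 and 6 lower at 1, 3, 6, 12 and 24 h, where 0.312% of all genes were called in either direction at 1 h. Over the alternatives the ranges higher were 0 to 1, 5 to 7, 8 to 10, 1 to 3 and 5 to 8, and those lower 0 to 1, 2 to 3, 1 to 2, 2 to 5 and 5 to 7. RELB, of the NF-kB family, rose by 1.20 at 3 h and by 1.28 at 6 h (SE 0.0836, edgeR adjusted p = 5.4e-09) and stood 0.76 above 0 h at 24 h. FOS, of the AP-1 family, fell by 0.95 at 1 h and by 1.85 at 3 h (SE 0.142, edgeR adjusted p = 6.0e-08). At 6 h its level was 43.1 ± 7.44 CPM (SD, n = 3) against 44.0 ± 7.55 (SD, n = 3) at 0 h, a difference of -0.03 that was not called, and it was again lower at 12 h (-1.57) and 24 h (-1.05). Leaving out the first 1 h library ended the 1 h call.

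**Figure D4:**
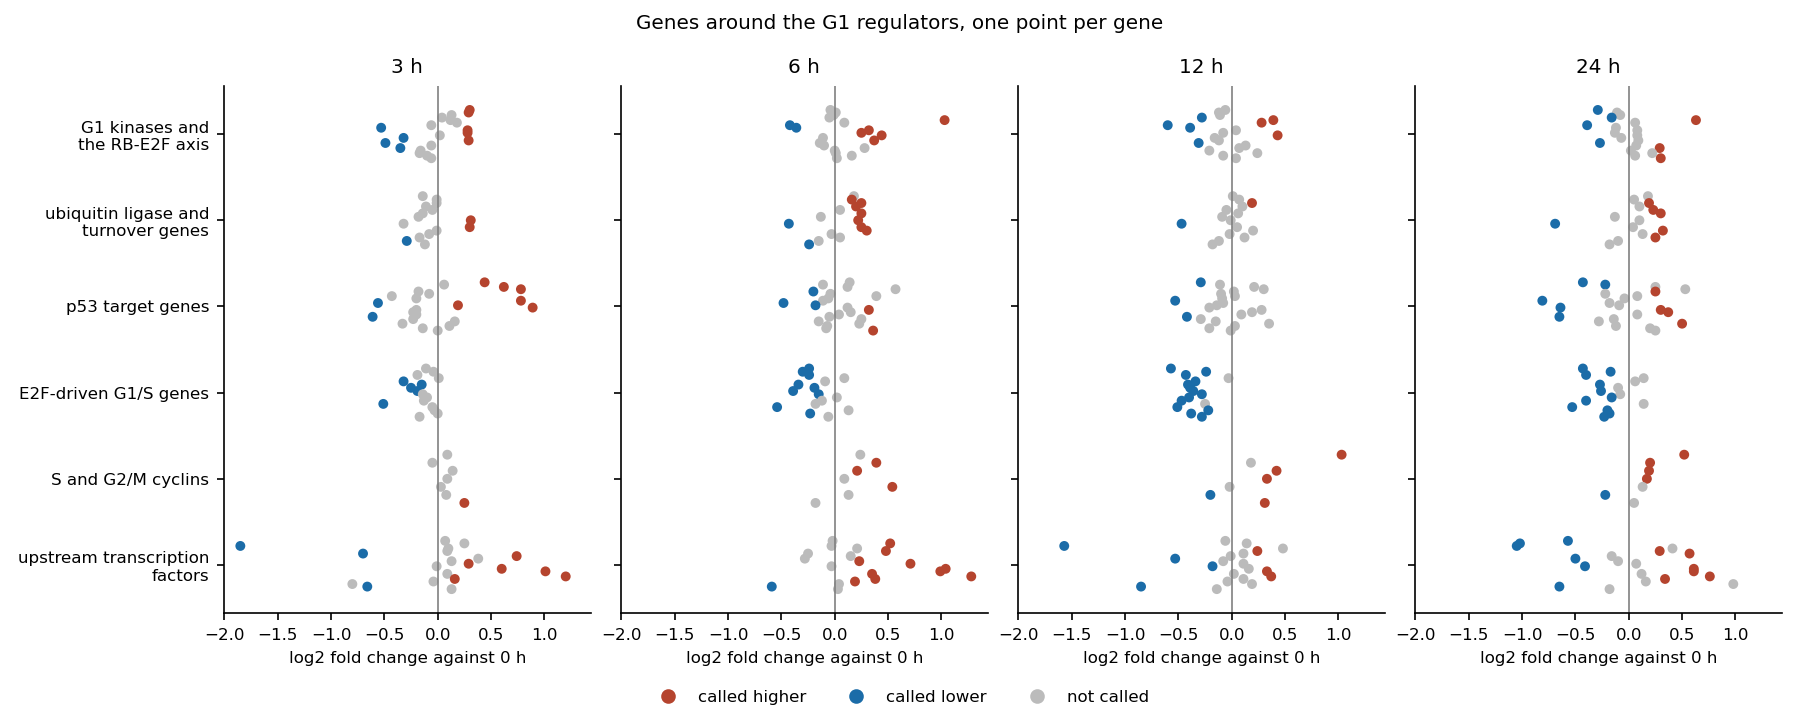
Log2 fold change against 0 h (x axis) at 3, 6, 12 and 24 h for the genes of 6 lists (rows), 1 point per gene, coloured by whether the edgeR adjusted p was below 0.05 and in which direction. The E2F-driven genes have no called point above 0 at any of the 4 times and 14 below at 12 h.

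Between neighbouring times, the step from 3 to 6 h had the most called members. It held 5 of the 10, with CCND1, CDKN1A and CDKN1B higher and CCND3 and CDKN2C lower, where 43.2% of all genes were called. From 1 to 3 h, 2 of 10 were called against 5.73%, with CDKN1A higher and CDKN1C lower. From 6 to 12 h, 4 of 10 were called against 20.6%, with CDKN1C higher and CCND1, CDKN1A and CDKN1B lower. From 12 to 24 h, 0 of 10 were called by edgeR, DESeq2 or limma-voom against 12.0%, and 4 had an unadjusted p below 0.05. Calls were made at this step with length and GC trends removed or with scaling by library size only, as given at the end. From 3 to 24 h CDKN1B rose by 0.46 (edgeR adjusted p = 1.3e-04), CDKN1C by 0.54 (0.00986) and MDM2 by 0.18 (0.0381). CDKN1A changed by -0.31 (edgeR adjusted p = 1.6e-04). The alternatives were not examined for this pair of times, whose libraries differed in the slope on transcript length. Against 0 h, the 24 h value of MDM2 was -0.08 with length and GC trends removed.

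The genes most like each member were taken as those with the highest Pearson correlation of log2 CPM over the 17 libraries, which fall into 6 times and share library depth and scaling. CDKN1A was most like DNAJB1 (r = 0.97), HIC1 (0.96) and SDC4 (0.96), of which DNAJB1 encodes a heat shock co-chaperone. CDKN2C was most like CHAF1B (0.94), a chromatin assembly factor, MCM3 (0.93), part of the replicative helicase, and LRRC45 (0.92). CDKN1C was most like PUDP (0.93), NR1D1 (0.92) and RGS14 (0.92), and CDKN1B most like STIMATE (0.93), GCLM (0.93) and DHX9 (0.91). For CCND1 these were NUP214, LMNB2 and C8orf33, each at 0.95, and for CCND3 they included SIL1 (0.91) and ACADS (0.91). For MDM2 they were EXOC6 (0.88), HSDL2 (0.86) and RAB5A (0.85). The values were lower for CCNE1, with CAMK2N1 (0.86), HPRT1 (0.84) and ANAPC5 (0.83), for CCNE2, with IDI1 (0.83), E2F6 (0.80) and TMEM8B (0.80), and for CCND2, with PHF7 (0.76), ZSWIM1 (0.76) and TRIM66 (0.70). Members were thus not among each other's 3 nearest genes.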

How the data were processed

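Paired-end libraries of poly(A) RNA (TruSeq Stranded mRNA, per the labels' protocols) were made into a table of expected counts, which the authors deposited for all 17 libraries, with no normalization. cutadapt 1.18, STAR 2.7.0f and hg38 are named in the submitters' processing notes. RSEM is named by the deposited table itself, but which version and gene annotation it used, and whether it counted by strand, is not given in the sources used here. Of 58870 identifiers, 47456 matched GENCODE 29 with their version and 58597 without it. Of the deposited values 10.8% were not whole, and the expected counts were rounded.

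In R 4.3.3, edgeR 4.0.16 (filterByExpr, TMM, robust quasi-likelihood fit over 6 times) tested 15365 genes. An adjusted p below 0.05 (Benjamini-Hochberg over all genes) was a call. Levels are CPM scaled by TMM, and per length they are divided by the union exon length. The biological coefficient of variation was 7.06%. The likeness of genes used log2 CPM with a prior count of 2, among genes with an average of at least 2.

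Alternatives were other scalings, no filter or a mean count of 10, DESeq2 1.42.0, limma-voom (limma 3.58.1), a non-robust fit, 2 times alone, a replicate block, unrounded counts, length and GC trends removed, near-identical libraries averaged, and each library left out. The test was checked on simulated counts. All 10 members were named. From each of 8 lists of related genes (117 genes), the called genes with the highest and lowest change at a time could be named and all genes of a list of 3. CDK4 was named in addition, as the other partner of the D-type cyclins. Some values, among them the counts of 1 list, are not reported here. Members and lists were chosen with earlier results of these data known, and the Sp1, TATA and p53 motif searches were added after the others.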

Additional observations from a re-analysis of the deposited data

How the results depend on the processing

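Of 50 member results against 0 h, 11 were called and 5 of these kept their call and direction under every alternative run: CDKN1A at 3 h (0.36 to 0.50) and at 6 h (0.89 to 1.08), CDKN1C at 6 h, and CDKN2C at 6 and 12 h. Counts near the threshold moved, and the cause was not tested. At 3 h, CDKN2C was added with library size only and CCNE2 with no filter, and CDKN1B was lost with 2 times alone. At 6 h, CCNE2 and CDKN1B were added with length and GC trends removed, with or without the replicate block. There CCNE2 was also added with 2 times alone, and CCND1 was lost with averaging. At 12 h, 2 members instead of 1 were called with a mean count of 10, DESeq2 or a non-robust fit, and 3 with length and GC trends removed, with or without the replicate block. At 24 h, 1 instead of 2 was called with upper-quartile scaling, no filter, 2 times alone or averaging, 3 (CDKN1A, CDKN1B and MDM2) with library size only, and 2 others (CDKN1A and CDKN1B in place of CDKN2C and MDM2) with length and GC trends removed. From 1 to 3 h, 1 instead of 2 was called with DESeq2, limma-voom, 2 times alone, averaging or the replicate block. From 3 to 6 h, 3 instead of 5 were called with library size only, no filter, 2 times alone or averaging. From 12 to 24 h, 1 instead of 0 was called with library size only, and 3 with length and GC trends removed, with or without the block. With single libraries left out the counts ranged from 0 to 0 at 1 h, 1 to 3 at 3 h, 5 to 6 at 6 h, 1 to 2 at 12 h and 1 to 3 at 24 h, and for neighbouring times from 1 to 2 (1 to 3 h), 3 to 5 (3 to 6 h), 3 to 4 (6 to 12 h) and 0 to 1 (12 to 24 h). Over all times they ranged from 6 to 7.

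Signs turned in 35 cases, of which the called result was MDM2 at 24 h, -0.08 with length and GC trends removed and -0.08 with the replicate block added; none of the turned values passed the threshold. With the same trends removed, and again with the block, CCNE1 at 6 h was 0.10 and 0.09, MDM2 at 6 h -0.15 and -0.15, CCND3 at 24 h 0.07 and 0.07, and CDKN1C at 24 h 0.19 and 0.19. With library size only, at 1 h CCNE1 was -0.03, CDKN1C -0.01 and CDKN2C -0.04, at 3 h CCNE1 was -0.03 and MDM2 -0.06, and at 24 h CCND3 was 0.03. MDM2 at 3 h was -0.01 with no filter. With 1 library left out, not called values that turned ranged at 1 h from -0.97 to 0.27 for CCND2, -0.03 to 0.07 for CCNE1, -0.30 to 0.06 for CCNE2, -0.05 to 0.12 for CDKN1C and -0.03 to 0.03 for CDKN2C, at 3 h from -0.05 to 0.01 for CCND1, -0.01 to 0.11 for CCNE1 and -0.05 to 0.06 for MDM2, at 6 h from -0.06 to 0.02 for CCNE1, and at 12 h from -0.05 to 0.07 for CDKN1A and -0.10 to 0.02 for CDKN1B.

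The replicate numbers were not treated as pairs in the reported fit. Of same-numbered pairs of libraries, 19 of 40 had deviations correlated above 0.1 (median 0.02), against 30 of 80 different-numbered pairs (median -0.04). Of the 17 libraries, 8 correlated best with their own number. With the replicate block the counts were 0, 3, 5, 1 and 2 members at 1, 3, 6, 12 and 24 h. Over all genes, calls against 0 h ranged from 27 to 195 at 1 h (48 in the reported fit), 1412 to 4077 at 3 h (2727), 2532 to 4971 at 6 h (4627), 724 to 2563 at 12 h (1911) and 3444 to 5798 at 24 h (5388), and between neighbours from 271 to 2085 from 1 to 3 h (880), 1670 to 4219 from 6 to 12 h (3168) and 452 to 2872 from 12 to 24 h (1847). Depth limits CCND2 (8 to 22 counts a library) most.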
